A study of Mus musculus with 39 samples.

Results

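The regions described here are stretches of the mouse genome with an H3K9me3 peak in all 3 libraries of one sorted population, Oct4, and in none of the 6 libraries of the other populations, DP and Pdgfra. They were found by merging the peaks of the 9 H3K9me3 libraries wherever these overlapped, which gave 57781 merged regions, of which 2561 met the rule (4.43%). They are called Oct4-only regions below. The members were thus chosen by the presence of listed H3K9me3 peaks, and everything said here about H3K9me3 in them is a description with no test. The other 3 marks, the genes and the DNA sequence were not used to choose them.

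The study profiled naive extra-embryonic endoderm (nEnd), a mouse culture that models the primitive endoderm of the blastocyst, by CUT&Tag, in which an antibody guides a transposase to the DNA around a histone mark. The cultures derive from embryonic stem cells with an OCT4-mCherry reporter, were differentiated and expanded in Activin A, CHIR99021 and LIF (RACL medium), and received no further treatment. Differentiation was on gelatin and expansion on mouse embryonic fibroblast feeders. FACS gave 3 populations, positive for the reporter (Oct4), for reporter and PDGFRA together (DP) or for PDGFRA (Pdgfra), each with 3 libraries for H3K4me1, H3K27ac, H3K27me3 and H3K9me3, 36 libraries in all. All come from the one reporter line, and feeder cells can carry PDGFRA, so the Pdgfra gate could hold some.

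H3K9me3 is the mark of constitutive heterochromatin. In embryonic stem cells it is laid down largely by the methyltransferase SETDB1, which the corepressor TRIM28 and KRAB zinc finger proteins guide to retrotransposons, the mobile sequences that copy themselves through RNA. LTR retrotransposons start their copying from a host tRNA whose 3′ end pairs with a primer-binding site, and LINE-1 elements carry long open reading frames behind an internal promoter. H3K27ac marks active promoters and enhancers, H3K4me1 marks enhancers, and H3K27me3 is the Polycomb mark of silent developmental genes.

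Sequences shared by many of the Oct4-only regions are shown first, because they recurred in the results. In the 2 kb at the centre of each region, runs of 16 bases (16-mers) were sought that at least 16 Oct4-only regions on the odd-numbered autosomes held and that were at least 3 times as frequent there as in comparison regions. The comparison regions are the other 16708 merged H3K9me3 regions that 2 or 3 Oct4 libraries share, whatever the other populations have. Of the 1861 16-mers found, those that occur together made 5 groups, and the 2 largest are called sequence family 1 (823 16-mers) and sequence family 2 (913 16-mers). The 180 bases below are from the 3 strongest members of family 1 that hold the anchor, 1 per chromosome (mm10, read from the GRCm38.p6 genome of RefSeq), and the capitals mark that anchor, a 16-mer in 234 family 1 members.
chr7:14170696-14170875, minus strand: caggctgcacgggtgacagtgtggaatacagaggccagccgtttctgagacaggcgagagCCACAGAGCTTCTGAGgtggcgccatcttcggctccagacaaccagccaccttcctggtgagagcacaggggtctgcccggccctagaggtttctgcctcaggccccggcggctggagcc
chr1:12498586-12498765, plus strand: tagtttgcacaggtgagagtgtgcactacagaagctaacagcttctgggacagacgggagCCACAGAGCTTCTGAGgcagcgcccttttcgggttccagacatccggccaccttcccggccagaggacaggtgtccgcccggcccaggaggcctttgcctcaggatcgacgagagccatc
chr2:114555337-114555516, minus strand: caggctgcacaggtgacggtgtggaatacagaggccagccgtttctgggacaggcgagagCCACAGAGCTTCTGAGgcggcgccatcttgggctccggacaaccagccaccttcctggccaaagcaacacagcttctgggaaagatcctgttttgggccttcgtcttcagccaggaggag

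The sequences from chromosomes 7 and 2 were identical at 130 of 180 positions without gaps, and the one from chromosome 1 matched them at 102 and 101. For family 2 the capitals mark a 16-mer held by 74 members, again shown in 3 members chosen in the same way.
chr3:31595836-31596015, plus strand: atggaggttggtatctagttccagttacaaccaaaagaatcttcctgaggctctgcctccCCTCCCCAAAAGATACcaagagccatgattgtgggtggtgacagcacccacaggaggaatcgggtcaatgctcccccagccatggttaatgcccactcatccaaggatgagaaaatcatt
chr2:24328704-24328883, plus strand: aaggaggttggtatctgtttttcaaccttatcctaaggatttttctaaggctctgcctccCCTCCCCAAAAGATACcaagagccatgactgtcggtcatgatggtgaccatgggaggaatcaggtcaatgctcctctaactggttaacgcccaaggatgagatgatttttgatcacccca
chr13:50113212-50113391, plus strand: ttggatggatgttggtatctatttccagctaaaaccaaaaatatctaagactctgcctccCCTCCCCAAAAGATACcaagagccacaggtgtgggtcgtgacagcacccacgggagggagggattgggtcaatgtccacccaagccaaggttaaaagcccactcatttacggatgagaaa

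The family 2 sequences were identical at 92 to 112 of 180 positions without gaps. The copies are thus related and not identical, and no repeat annotation was used here to name them.

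The Oct4-only regions covered 8.81 Mb in all. They were 896 to 12810 bp wide, with a median of 3120 bp, against 3997 bp for the comparison regions and 7107 bp for the 1673 regions with a peak in 9 of 9 H3K9me3 libraries. A merged region is the union of its peaks, and a wider one can touch more lists. The widths are therefore tied to the rule and are no separate trait of the members. Among merged regions with a peak in all 3 Oct4 libraries, 0 peaks elsewhere was the most frequent outcome (2561 regions) and 6 of 6 came next (1673 regions), as the plot of regions by library shows. A further 3550 regions had a peak in 2 Oct4 libraries and no other, and 8231 in 1 Oct4 library and no other. The members were spread over every chromosome and made up 3.4% (chromosome 2) to 7.34% (chromosome X) of its merged regions.

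**Figure D1:**
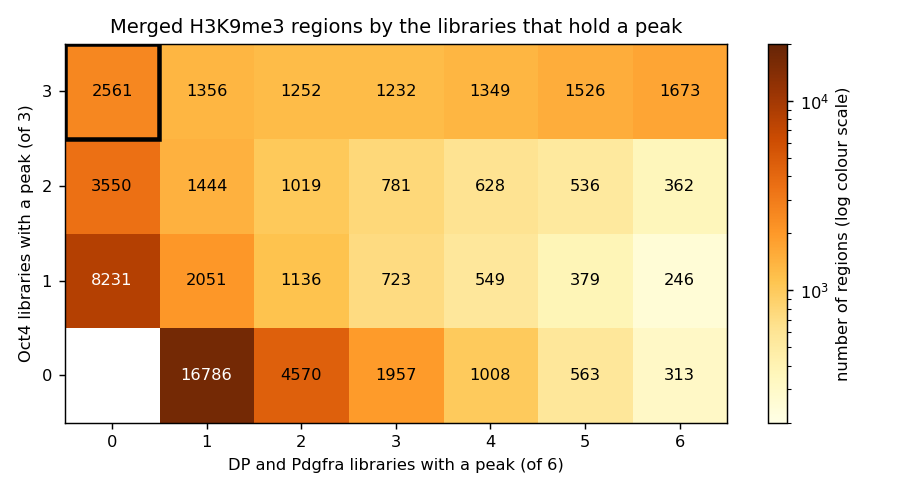
Number of merged H3K9me3 regions (colour, log scale, and printed) by how many of the 3 Oct4 libraries (vertical axis) and of the 6 DP and Pdgfra libraries (horizontal axis) hold a peak. The box marks the 2561 Oct4-only regions, and the largest class, 16786 regions, has a peak in 1 DP or Pdgfra library and in no Oct4 library.

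Total signal, the coverage summed over the bases of a peak, is the measure of strength in the lists, and it was not scaled to depth. In the Oct4-only regions its median was 9168 in Oct4 replicate 1, 9665 in replicate 2 and 5875 in replicate 3. In comparison regions with a peak in the same library it was 8975, 9321 and 6814. The members were therefore about as strong as the other Oct4 regions in replicates 1 and 2 and weaker in replicate 3. The lowest total signal of any listed peak was 3752 to 4609 in the Oct4 lists, 6021 to 6596 in the DP lists and 7633 to 8993 in the Pdgfra lists. Only 347 members (13.5%) reached 8993, the highest of these minima, in all 3 Oct4 libraries. Fewer members, 866, met the same rule when each list was limited to its 5322 strongest peaks, and 268 of the 2561 (10.5%) overlapped them. The absence of a peak in DP and Pdgfra thus sits beside a higher floor of those lists. In these bulk lists, fewer cells with the mark and less mark per cell cannot be told apart.

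**Figure D2:**
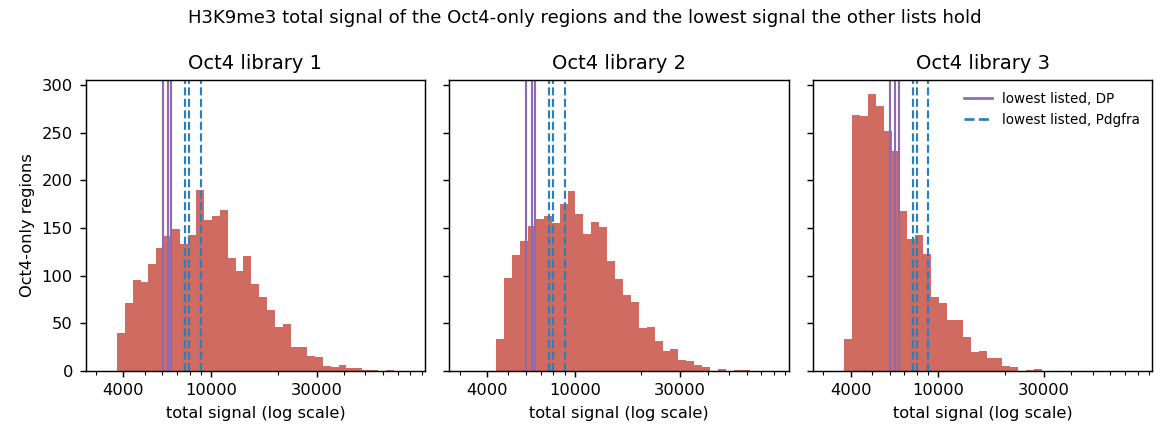
Histograms of the H3K9me3 total signal (horizontal axis, log scale) of the 2561 Oct4-only regions in each of the 3 Oct4 libraries, with vertical lines at the lowest total signal listed in each DP (solid) and Pdgfra (dashed) H3K9me3 list. The medians, 9168, 9665 and 5875, lie above all lines in replicates 1 and 2 and below all 6 lines in replicate 3.

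The nearest H3K9me3 peak of DP or Pdgfra lay at a median of 17793 bp from a member, and 20.7% of members had one within 5 kb. Within 50 kb it was 75.8%. The nearest other Oct4-only region lay at a median of 228331 bp, and 20.5% had one within 50 kb.

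The 10 members with the highest lowest-of-3 total signal were led by chr14:40448585-40457183, an 8599 bp intergenic region 396122 bp from the nearest coding start site, that of Sh2d4b. Its total signals were 31558, 33074 and 28662 in Oct4 replicates 1, 2 and 3, the most even of these 10. The widest member, chr7:26685142-26697951, lay over the promoter of Cyp2b23, a cytochrome P450 gene, and had 66329, 58508 and 25793. Next to Nkx2-5, the gene of a cardiac homeobox factor, chr17:26817665-26826088 held 33931, 35536 and 27257 at 15477 bp from the start site. In each of the 3 regions replicate 3 was the lowest library. An intron of Naip2, a sensor of bacterial proteins, held chr13:100155492-100161785 with 23258, 29199 and 20376. In an intron of the non-coding gene A930001A20Rik, chr3:14991364-15003605 held 45913, 40265 and 22887. The other 5, on chromosomes 12, Y, 6, 13 and 3, had lowest values of 20174 to 21355. Of the 10, 4 held 5 or more 16-mers of family 2 in the centre window and none held a 16-mer of family 1.

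The members just inside the rule were at the floor of the Oct4 lists. The 3 weakest members, chr15:65215182-65219225, chr8:24825549-24827884 and chr10:112052129-112054098, had a lowest total signal of 3757, 3773 and 3782, next to the list's minimum of 3752. The strongest regions outside the rule, with a peak in all Oct4 libraries and in 1 DP library, included chr10:130584773-130594996, with 55382, 43577 and 24989 in Oct4 and 16666 in DP replicate 1, and chr15:49186203-49196651, with 45842, 42899 and 24582 in Oct4 and 6719 in DP replicate 3. The first DP value is well above the lowest listed in that library, 6376, and the second is near its own, 6596. In both regions the DP value was below every Oct4 value.

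Repeated sequence made up more of the Oct4-only regions than of other H3K9me3 regions. The median share of bases that the reference genome marks as repeats was 46.3% (quartiles 30.4 and 63.6%), against 42.2% in comparison regions, 38.0% in regions with a peak in 9 of 9 libraries and 27.1% in the 8411 regions with no Oct4 peak and at least 2 peaks in DP or Pdgfra. All 2 kb tiles of the genome had a median of 27.4%. GC content differed less, with medians of 42.6%, 43.0%, 44.2% and 43.5% in the same order. These are shares over regions and carry no test.

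Family 1 was held, as 5 or more of its 16-mers in the centre window, by 489 Oct4-only regions (19.1%), against 7.49% of comparison regions and 4.89% of all merged regions. With each H3K9me3 list limited to its 5322 strongest peaks it was 8.20% of 866 members and 4.81% of comparison regions. Both settings include the chromosomes on which the 16-mers were chosen for being more frequent in members. With the full lists, on the chromosomes that were not used to find the 16-mers, the share was 19.8% of 1232 members and 8.11% of 8073 comparison regions. How reads from repeated copies were placed is not known, so copies on these chromosomes may not be independent of the others. On these chromosomes the share of centre windows fell with every additional DP or Pdgfra library among regions with 3 Oct4 peaks, from 19.8% with none to 11.8%, 10.2%, 7.22%, 4.75%, 3.72% and 1.53% with 1 to 6 of them. The fall was smaller over whole regions, where the 2 kb window does not leave out more of the wider ones. There the family was in 22.2% of members, 11.9% of comparison regions and 5.98% of 9-of-9 regions. In the centre window the share was also 16.3% with 2 Oct4 peaks and 10.5% with 1 where no other population had a peak. Family 1 was thus not particular to the Oct4-only class. With no Oct4 peak its share was at most 0.793%. Of all 2 kb tiles of the genome 1.01% held the family.

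Family 2 was held by 290 Oct4-only regions (11.3%), against 3.10% of comparison regions and 1.73% of all merged regions. With the lists limited to equal numbers it was 20.8% of members and 5.21% of comparison regions, so the order of the families by share was the opposite there. On the chromosomes not used to find it, 10.6% of members and 2.86% of comparison regions held it. There the share was 10.6% with 0 other libraries and 1.02% with 6, and it was 3.64% with 2 Oct4 peaks and 1.74% with 1 where no other population had a peak. Over whole regions on those chromosomes it was 12.7% of members, 4.16% of comparison regions and 3.69% of 9-of-9 regions. In the centre window only 2 of the 4197 regions with no Oct4 peak and at least 2 others held the family on those chromosomes. Of all 2 kb tiles 0.369% did.

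**Figure D3:**
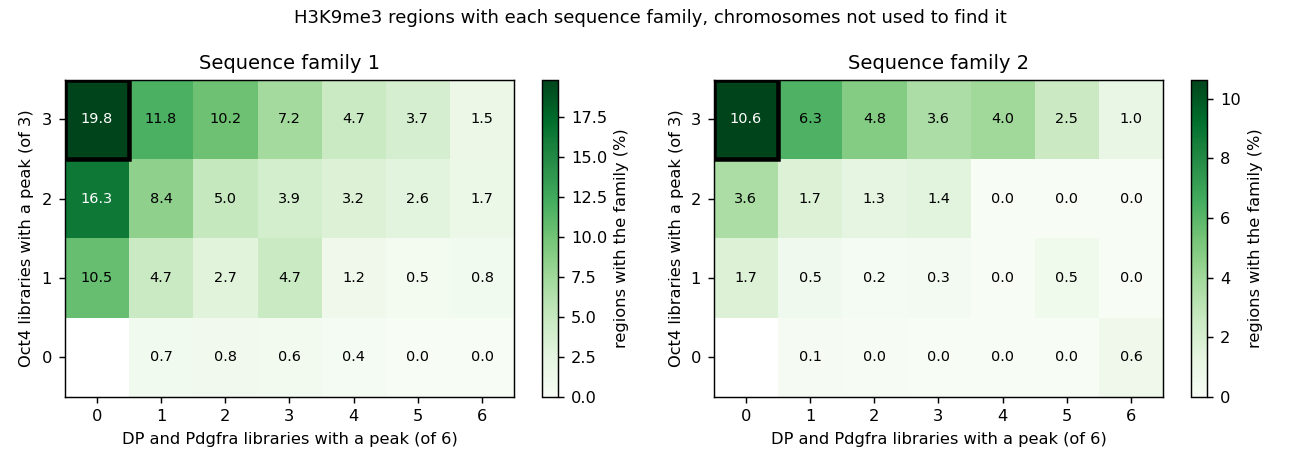
Share of merged H3K9me3 regions (percent, colour and printed) whose 2 kb centre holds 5 or more 16-mers of family 1 (left) or family 2 (right), on the chromosomes not used to find the 16-mers, by the number of Oct4 libraries (vertical) and of DP and Pdgfra libraries (horizontal) with a peak. The boxed Oct4-only class is the highest in both, at 19.8 and 10.6%.

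The families differed from each other in strength and surroundings. Family 2 members had median total signals of 12518.5, 12807.5 and 7278.5 in Oct4 replicates 1, 2 and 3, family 1 members 8071, 8829 and 5722, and members with neither family 9160, 9549 and 5822. Median widths were 3744, 2560 and 3241 bp in the same order, and total signal is summed over the width, so the order of the groups in total signal was also their order in width. Of the family 2 members 31.0% reached a total signal of 8993 in all 3 Oct4 libraries, and of the family 1 members 7.77%. Among the 347 members at that level family 2 was in 25.9% and family 1 in 10.95%, against 6.45% and 4.16% of the 3100 comparison regions at that level.

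Long open reading frames were more frequent near family 1 members than near the other members. A reading frame of at least 3000 bp without a stop codon, in any of the 6 frames and within 6000 bp of the centre window, was found at 56 of 489 family 1 members (11.5%), 6 of 290 family 2 members (2.07%) and 68 of 1787 members with neither (3.81%). Among comparison regions it was found at 88 of 1251 with family 1 (7.03%), 9 of 518 with family 2 (1.74%) and 371 of 14947 with neither (2.48%). In 51 of the 56 family 1 members with a frame the family lay upstream of it on the frame's strand, at a median of 1700.5 bp, and with the comparison regions added in 124 of 144. That order is the layout described above for LINE-1 elements, but most family 1 members had no such frame and the identity of the family was not tested.

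Primer-binding sites were searched as the reverse complement of the last 18 bases of each annotated mouse tRNA, its CCA end included, on both strands with 1 mismatch allowed. Those of 4 tRNAs are shown because their shares or positions are given below, with the capitals marking the bases that pair with the CCA end.
tRNA-Phe: TGGtgccgaaacccggga
tRNA-Lys, type of the n-TKctt10 gene: TGGcgcccaacgtggggc
tRNA-Lys, type of the n-TKttt22 gene: TGGcgcctgaacagggac
tRNA-Leu: TGGtaccaggagtggggt
tRNA-Pro: TGGgggctcgtccgggat

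The tRNA-Phe site, which in mouse is used by intracisternal A particle (IAP) elements, was in the centre window of 56 Oct4-only regions (2.187%), 2.01% of comparison regions, 1.26% of regions with a peak in 9 of 9 libraries and 5 of 8411 regions without an Oct4 peak (0.0594%). Its share of all merged regions was 0.971%, and of all 2 kb tiles 0.212%. Over whole regions it was in 3.90% of members and 5.18% of the wider comparison regions. The tRNA-Pro site was in 0 of 2561 members, which allows a share of up to 0.117%, against 0.449% of comparison regions, 2.21% of regions with a peak in 9 of 9 libraries and 0.171% of all merged regions. No member held the tRNA-Pro site in its whole length either. For tRNA-Leu the shares were 0.195%, 0.269% and 0.717% in members, comparison regions and 9-of-9 regions. For tRNA-Gln the shares were 0.0390%, 0.233% and 0.717% in members, comparison regions and 9-of-9 regions, and for tRNA-Lys 0.234%, 0.539% and 0.717%. These 3 ran in the same order as tRNA-Pro, but on few members, 5 for Leu, 1 for Gln and 6 for Lys. Their shares of all merged regions were 0.367%, 0.0900% and 0.232%. Sites of tRNA-Gly and tRNA-Thr ran in that order too. Those of tRNA-Ile, at 0.234%, 0.263% and 0.0598%, and of tRNA-Ala, at 0.0781%, 0.00599% and 0%, did not.

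**Figure D4:**
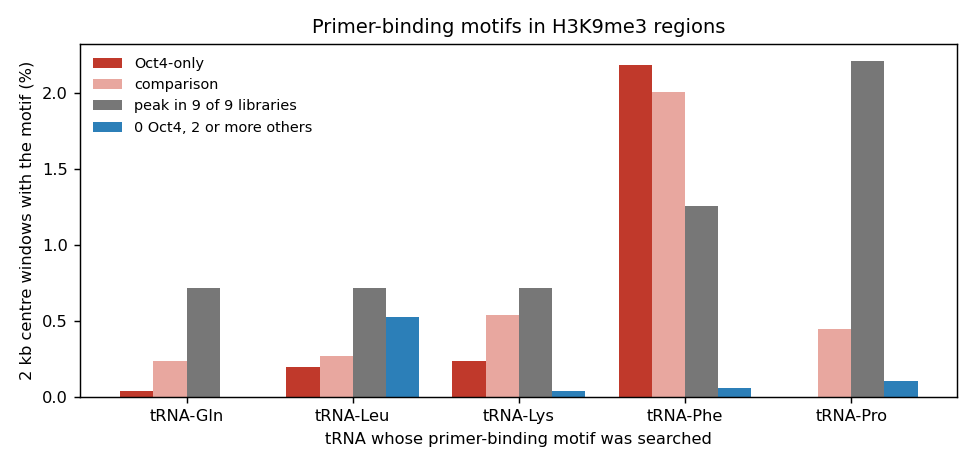
Share of H3K9me3 regions (vertical axis, percent) whose 2 kb centre holds the primer-binding motif of each tRNA (horizontal axis), for the Oct4-only regions, the comparison regions, the regions with a peak in 9 of 9 libraries and those with 0 Oct4 and 2 or more other libraries. The tRNA-Pro motif is at 0 in the Oct4-only regions and at 2.21% where all 9 libraries have a peak, while tRNA-Phe is at 2.187 and 1.26%.

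Beyond the centre, a tRNA-Lys site lay within 6000 bp of 28 of the 290 family 2 members (9.66%), of 0 of 489 family 1 members and of 10 of 1787 members with neither (0.560%). Among comparison regions with family 2 it was near 83 of 518 (16.02%), a higher share than in the members. In 24 of the 28 the family lay downstream of the site on its strand, at a median of 4410.25 bp. With the comparison regions added the order held in 66 of 111. The Lys site of the n-TKttt22 type was near 13 family 2 members and that of the n-TKctt10 type near 9.

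H3K27ac peaks overlapped more of the Oct4-only regions in Oct4 libraries than in the others. A peak overlapped 410 members (16.01%) in Oct4 replicate 1, 488 (19.1%) in replicate 2 and 179 (6.99%) in replicate 3. In DP replicates 1, 2 and 3 it was 92 (3.59%), 26 (1.02%) and 83 (3.24%), and in Pdgfra 26 (1.02%), 36 (1.41%) and 41 (1.60%). Every Oct4 library was above every DP and Pdgfra library. The means were 14.0 ± 6.27% in Oct4, 2.62 ± 1.40% in DP and 1.34 ± 0.298% in Pdgfra (SD, n = 3; F statistic over the 3 populations, which has no direction, exact permutation of the libraries, p = 0.0143, adjusted p = 0.0429 over 6 tests). The H3K27ac lists differed in length in the same direction, with 38619, 65131 and 8574 peaks in Oct4 against 3079 to 12244 in the others. The shortest Oct4 list, with fewer peaks than DP replicates 1 (10957) and 3 (12244), still overlapped 6.99% of members against 3.59 and 3.24%. With 3079 peaks from each list the difference between Oct4 and the mean of the others dropped from 12.04 to 2.20 percentage points (exact permutation p = 0.0179, adjusted p = 0.0964).

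The comparison regions had H3K27ac in the same libraries, and the difference from them is called the excess. In Oct4 they were at 12.2%, 17.5% and 3.51%, so the members exceeded them by 3.78, 1.52 and 3.48 percentage points. In DP and Pdgfra the excess was 0.0815 to 0.883 points. It was thus positive in 9 of 9 libraries and was 2.93 ± 1.23 points in Oct4, 0.545 ± 0.310 in DP and 0.279 ± 0.174 in Pdgfra (SD, n = 3; exact permutation p = 0.0143, adjusted p = 0.0429). As a ratio of the member share to the comparison share, the populations overlapped. This ratio was 1.31, 1.09 and 1.99 in Oct4, 1.15, 1.37 and 1.37 in DP and 1.09, 1.41 and 1.28 in Pdgfra. A difference in points can grow with the length of a list, so the excess is not a relative enrichment particular to Oct4. With 3079 H3K27ac peaks from each list the difference in excess between Oct4 and the mean of the others dropped from 2.51 to 1.09 points and did not pass (exact permutation p = 0.0321, adjusted p = 0.0964). Against only those regions with a peak in all 3 Oct4 libraries and at least 1 other, the difference in excess was 1.21 points and did not pass (exact permutation p = 0.293, adjusted p = 0.293). In Oct4, 335 members (13.1%) had H3K27ac in at least 2 of 3 libraries, against 8.83% of comparison regions and 7.11% of all merged regions. In DP 63 members did (2.46%, all merged regions 1.22%) and in Pdgfra 32 (1.25%, all merged regions 0.661%). The overlap had a median of 2003.5 bp in the Oct4 libraries and 77.5% of these peaks had their centre inside the member, so it was not mainly contact at the edges. A peak of both marks in a sorted population does not show them on the same chromosome copy or in the same cell.

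H3K27ac was less frequent in members with a family than in those with neither. In Oct4 replicates 1, 2 and 3 it was 0.613%, 1.64% and 0.204% of family 1 members, 10.3%, 11.4% and 5.86% of family 2 members and 21.1%, 25.1% and 9.01% of members with neither. The order was the same in the 3 libraries. Repeated copies differ in how many reads can be placed on them, the sources used here do not say how such reads were handled, and its part in these shares was not tested.

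**Figure D5:**
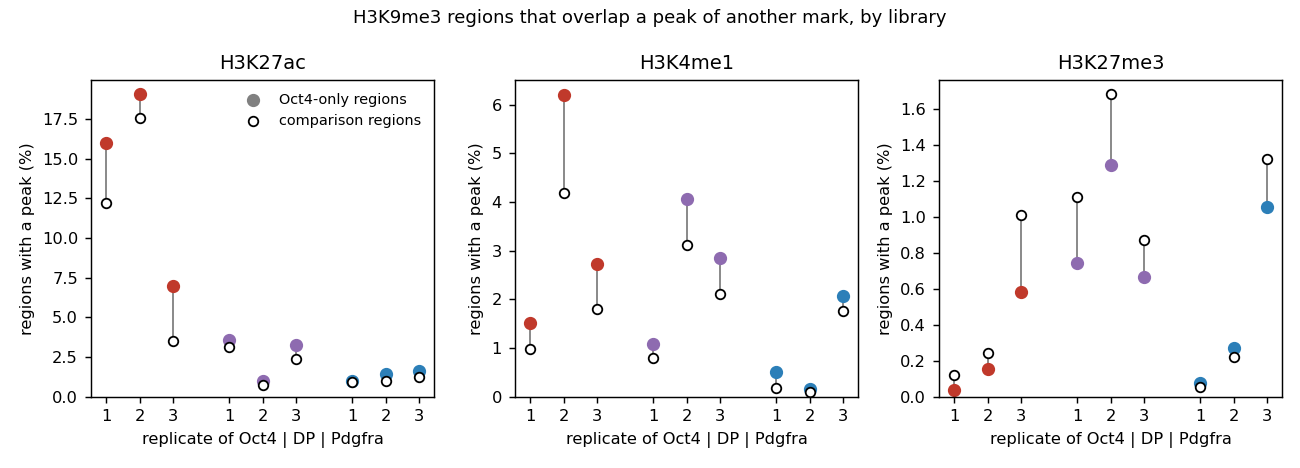
Share of regions (vertical axis, percent) that overlap a listed H3K27ac, H3K4me1 or H3K27me3 peak in each library (horizontal axis: replicates of Oct4, DP and Pdgfra), with filled points for the Oct4-only regions and open points for the comparison regions. For H3K27ac the Oct4 libraries sit at 16.01, 19.1 and 6.99% and the other 6 at or below 3.59%, while for H3K27me3 the Oct4 libraries, at most 0.586%, lie below the DP libraries, at least 0.664%.

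H3K4me1 overlapped 1.52%, 6.21% and 2.73% of members in Oct4 replicates 1, 2 and 3, 1.09%, 4.06% and 2.85% in DP and 0.508%, 0.156% and 2.07% in Pdgfra. The populations overlapped, and the means of 3.49 ± 2.43%, 2.67 ± 1.49% and 0.911 ± 1.02% did not pass the test (SD, n = 3; exact permutation p = 0.25, adjusted p = 0.25). The members exceeded the comparison regions in 9 of 9 libraries, by 0.0604 to 2.02 points, with no difference between populations past the threshold (exact permutation p = 0.129, adjusted p = 0.25). At least 2 of 3 libraries had the mark at 71 members in Oct4 (2.77%, all merged regions 1.56%), 63 in DP (2.46%, 1.59%) and 13 in Pdgfra (0.508%, 0.256%).

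H3K27me3 was rare at the Oct4-only regions. Its share per library ran from 0.0390% to 0.586% among the Oct4 libraries, 0.664% to 1.29% among those of DP and 0.0781% to 1.05% among those of Pdgfra. The means were 0.260 ± 0.288%, 0.898 ± 0.340% and 0.469 ± 0.517% (SD, n = 3; exact permutation p = 0.214, adjusted p = 0.25). The members lay below the comparison regions in 7 of 9 libraries, and this difference did not vary between populations past the threshold (exact permutation p = 0.25, adjusted p = 0.25). At least 2 of 3 libraries had the mark at 3 members in Oct4 (0.117%, all merged regions 0.318%), 19 in DP (0.742%, 1.27%) and 7 in Pdgfra (0.273%, 0.204%). In all, 1897 members (74.1%) had none of the 3 marks in any library. This count was not made for other regions, so it does not set the members apart. By the rule of at least 2 of 3 libraries, H3K27ac and H3K4me1 were more frequent in members than in all merged regions in each population.

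Some members carried these marks in every population. H3K27ac was listed in all 6 DP and Pdgfra libraries at chr3:14991364-15003605, the strong member in A930001A20Rik, which also had H3K4me1 in 8 of 9 libraries. All 6 also had H3K27ac at chr12:54695798-54700869 over the promoter of Eapp, an E2F-associated phosphoprotein gene. Its H3K9me3 total signals were 15644, 12808 and 14374, and H3K4me1 was in only 1 Pdgfra library. So did chr2:84807685-84811946 in Ube2l6, the gene of the enzyme that conjugates ISG15, with 16827, 17263 and 11258. There H3K27ac was in 1 of 3 Oct4 libraries, and H3K4me1 in 2 DP libraries and 1 Pdgfra library. At chr9:22159814-22163167, 2868 bp from Pigyl, both H3K4me1 and H3K27ac were in 9 of 9 libraries and H3K9me3 was weak, at 6639, 5858 and 4579. Vangl1, a planar cell polarity gene, held chr3:102189760-102193952 with H3K4me1 in 7 of 9 libraries and H3K9me3 of 28759, 23206 and 10103. H3K27me3 was in 6 of 9 libraries at chr5:33441288-33444485, 7312 bp from the homeobox gene Nkx1-1, and at chr16:10508384-10510340. The centre of the latter was in coding sequence and lay within the spans of the annotated genes Ciita and Dexi.

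The Oct4-only regions lay relative to genes much as the comparison regions did. By the centre base 1718 were intergenic (67.1%), 764 in introns (29.8%) and 16 in coding sequence, 24 in UTRs and 39 in other exons (3.08% together), against 68.0%, 28.9% and 3.14% of comparison regions. The median distance to a coding start site was 59956 bp, with 1174 members within 50 kb and 974 (38.0%) beyond 100 kb. A promoter, from 1 kb upstream to 100 bp downstream of a coding start site, was touched by 77 members (3.01%), against 3.09% of comparison regions and 2.61% of all merged regions. Of family 1 members 78.1% were intergenic and 0.409% touched a promoter, and of the 56 members with the tRNA-Phe site 82.1% were intergenic and none touched one.

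Among promoters the strongest members were those over Cyp2b23, Rasl11a, Ceacam2, Sult2a3, Vmn1r214, Slc17a9, Eapp and Mal2. Rasl11a, a small GTPase gene, held chr5:146837808-146845544 with 27171, 17834 and 18097. Sult2a3, a sulfotransferase gene, held chr7:14118098-14123167 with 20065, 27254 and 14530. Vmn1r214, a pheromone receptor gene, held chr13:23023474-23030806 with 25993, 28254 and 13107, and H3K27ac in 3 of 3 Oct4 libraries and in no other. The promoters of Cyp2b23 and of Brdt, a germline gene of the bromodomain family, are shown with every CG in capitals (RefSeq, GRCm38.p6), since a member covers each whole and they differ in CG content.
Cyp2b23, chr7:26686381-26686680, minus strand: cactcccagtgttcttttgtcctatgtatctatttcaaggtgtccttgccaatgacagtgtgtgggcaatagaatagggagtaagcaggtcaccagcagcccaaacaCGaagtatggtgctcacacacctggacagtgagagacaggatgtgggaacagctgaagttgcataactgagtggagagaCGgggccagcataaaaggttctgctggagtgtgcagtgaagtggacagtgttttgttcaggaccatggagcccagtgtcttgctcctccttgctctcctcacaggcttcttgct
Brdt, chr5:107330944-107331243, plus strand: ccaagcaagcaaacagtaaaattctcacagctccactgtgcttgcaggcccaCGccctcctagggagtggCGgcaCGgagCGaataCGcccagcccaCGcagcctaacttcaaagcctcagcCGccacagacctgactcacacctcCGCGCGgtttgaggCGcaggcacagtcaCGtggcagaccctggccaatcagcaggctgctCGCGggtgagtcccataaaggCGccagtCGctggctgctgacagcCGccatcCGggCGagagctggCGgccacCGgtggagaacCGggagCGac

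The Cyp2b23 promoter held 2 CG dinucleotides and that of Brdt 23, against a median of 7 over 32851 promoters of 300 bases. The member over Brdt, chr5:107329376-107331779, was among the weaker ones, with 7357, 8678 and 4643.

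The gene lists were compared with all genes by the distance to an Oct4-only region. Of all 21829 protein-coding genes 961 had one within 20 kb of an annotated transcript start (4.4%). The count was 0 of 25 for pluripotency genes, 1 of 25 for endoderm genes (Lrp2, the endocytic receptor megalin), 0 of 25 for trophectoderm genes, 1 of 25 for germline genes (Brdt), 1 of 36 for imprinted genes (Sgce) and 0 of 16 for fibroblast genes. With lists of this size the counts of 0 and 1 are near the share of all genes. The order changed with the distance: within 50 kb the shares were 16% for endoderm and 24% for germline genes against 9.97% of all genes, and within 5 kb 4% for both against 1.41%. Of 24 genes of the two-cell stage, 3 had one (12.5%): Zfp352, with chr4:90228708-90232958 at 5083 bp, total signals of 14152, 8176 and 8277 and 151 16-mers of family 2, Tcstv3, with chr13:120310620-120316208 at 670 bp and 13779, 13611 and 5722, and Zscan4e. By members, 4 lay near a two-cell gene (0.156%), close to the 0.126% of comparison regions. The comparison regions, which are more numerous, lay near 54.2% of the two-cell, 52.0% of the germline and 66.7% of the imprinted genes, against 25.2% of all genes. The region near Lrp2, chr2:69589024-69593628, lay at 2959 bp and had 8357, 9249 and 5357, and the one at Sgce, chr6:4692049-4695514, lay in an intron, 51602 bp from the nearest coding start, and had 14950, 16514 and 6751. Sgce counts only through the start of an internal transcript that codes for no protein.

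The share of genes with a member within 20 kb was also counted for gene families, with no test. It was 10.9% of 330 vomeronasal receptor genes (36 genes, 32 members) and 7.5% of 1133 olfactory receptor genes (85 genes, 52 members), beside 4.4% of all genes, 3.05% of 394 Zfp genes, many of which encode KRAB zinc finger proteins, and 0 of 56 clustered protocadherin genes. Receptor genes lie in clusters, so neighbours share a member, and by members the shares were 1.25% near vomeronasal genes against 0.850% of comparison regions, and 2.03% near olfactory genes against 1.99%.

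Measured from transcript starts, no member lay within 50 kb of the 8 lineage genes checked. Only 9.97% of all protein-coding genes had a member within that distance, so most genes lay beyond it too. The nearest member lay 126.936 kb from Pou5f1, which encodes OCT4, 241.118 kb from Nanog, 425.183 kb from Esrrb and 453.487 kb from Sox17. For Gata4 it was 377.554 kb, for Gata6 887.735 kb, for Pdgfra 1061.75 kb and for Cdx2 344.803 kb. In H3K27ac, all 5 pluripotency genes checked (Nanog, Pou5f1, Sox2, Esrrb and Zfp42) had a peak within 20 kb in 3 of 3 Oct4 libraries, Nanog, Sox2 and Esrrb in none of the others. The endoderm genes Gata6, Gata4, Sox17 and Sox7 had one in 3 of 3 DP and 3 of 3 Pdgfra libraries and in 2 of 3 Oct4 libraries, and Pdgfra in 0, 2 and 3. Of 8 fibroblast genes 6 had a peak in at least 1 Oct4 library, 2 in a DP library and none in a Pdgfra library. Among them only Col1a1 had a peak in 2 Oct4 libraries. The Pdgfra H3K27ac lists were short, at 4792 to 7128 peaks against 8574 to 65131 in Oct4. The presence of feeder cells in any population was therefore not tested.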

How the data were processed

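CUT&Tag peak lists of 36 libraries were used, and the 3 IgG samples were not analysed here. The authors called peaks per library with SEACR (stringent, against IgG). Per the labels' processing notes the build was mm10, and Bowtie2, deepTools, SAMtools 1.12, bcl2fastq 2.19.1 and bedtools 2.26.0 were named without roles. The deposited signal is whole-number coverage, not scaled to depth. Depth is unknown, so a region without a listed peak may carry the mark, and no interval for reads was computed.

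The members and lists were chosen with earlier results of these data known. Overlap meant at least 1 bp. Genes came from GENCODE vM21. All peaks ended within the GRCm38 chromosomes. Computation used Python 3.11.15, NumPy 2.4.6, SciPy 1.17.1 and Matplotlib 3.10.9, tested on simulated data and checked against bedtools 2.31.1. Libraries were the unit of the 6 tests, with Benjamini-Hochberg adjustment and a threshold of 0.05, and p-values measure only the spread between these libraries. The smallest p the design allows is 0.00357. Named were the 10 members with the highest lowest-of-3 signal, up to 3 members per gene list nearest to a start site, members with the other marks in most libraries, the 8 strongest over promoters, those at the edge of the rule and the distance from 8 lineage genes. Alternatives were equal list lengths, signal thresholds, wider overlap, other comparison regions, a replicate block and each replicate left out. No 2 lists were identical.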

Additional observations from a re-analysis of the deposited data

How the results depend on the processing

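The number of members depended on the lists. It was 2404 with peaks within 1 kb merged and 2032 when any peak of another population within 5 kb counted, but 866 with equal numbers of peaks and 519 with a common threshold of total signal, and 268 (10.5%) and 307 (11.99%) of the 2561 members overlapped those 2 sets. Without 1 replicate of all populations it was 3554 to 5843, the highest without replicate 3, and without replicate 2 it was 3877. Family 1 was in 8.20% and family 2 in 20.8% of the members from equal numbers of peaks, against 4.81 and 5.21% of the comparison regions made the same way. The settings for the families were chosen after seeing the data.

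The H3K27ac share kept its direction in every setting. As differences between Oct4 and the mean of DP and Pdgfra, in percentage points, H3K27ac share and excess were 2.20 and 1.09 with equal numbers of H3K27ac peaks (exact permutation, adjusted p = 0.0964 for both), and the excess was 1.21 against regions with 3 Oct4 peaks and another population and 6.10 with members and comparison regions both held to the highest list minimum (adjusted p = 0.05 by the exact permutation test, chosen after seeing the data). With the replicate block the share and excess stayed at 12.04 and 2.51 (exact permutation p = 0.0556, adjusted p = 0.0833). Same-numbered libraries deviated together in 4 of 36 pairs (correlation over 0.1, range -0.324 to 0.228). That does not settle whether the numbers pair the samples, since the labels give no more than the numbers. Without 1 replicate the share ranged from 9.14 to 15.8 and the excess from 2.02 to 3.18, where p cannot fall below 0.0667. The H3K4me1 excess, which did not pass, turned to -0.0712 with equal numbers of peaks, -0.480 with members from equal numbers of H3K9me3 peaks, which passed the threshold (exact permutation, adjusted p = 0.0429), and -0.120 with both sets held to the minimum, and the H3K27me3 excess of -0.00405 to 0.00664 with an overlap of 500 bp and ranged from -0.0525 to 0.0872 without 1 replicate. The cause was not tested.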
